A study of Mus musculus with 8 samples.

Results

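The mitochondrial solute carriers were taken as every protein-coding gene whose symbol is Slc25a followed by a number. The annotation held 47 such genes, all of them among the 22430 genes listed in the count table, and 45 of them passed the filter on low counts among 16730 genes tested. Their mRNA was compared between 4 young-adult (6m, 6 months) and 4 aged (24m, 24 months) male C57Bl/6JRj mice, 1 library from each animal. The animals carried no transgene or treatment named in the labels, so age was the factor compared. The tissue is given as whole brain in one label and as a hemisphere in another, so neurons, glia, vessels and the blood in them were measured together. In such bulk RNA, fewer cells of a type and less RNA per cell cannot be told apart.

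Members of this family are small proteins, most of them in the inner mitochondrial membrane, that share a fold of repeated membrane helices and carry metabolites across by opening to the matrix side and to the cytosolic side in turn. They move ATP, phosphate, amino acids, keto acids, cofactors and metals, and in brain they are known for supplying ATP to synapses, for shuttling reducing equivalents between cytosol and mitochondria, and for feeding the glutamate and GABA cycle. They are made in the cytosol, led through the outer membrane by Tom70 and other receptors, escorted by small chaperones and inserted by the TIM22 complex.

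Library totals ran from 63460940 to 103462414 counts, and the carriers together held 0.371% to 0.388% of the counts at 6m and 0.385% to 0.397% at 24m. Whether this share was higher at 24m depended on the denominator. Without the mitochondrially encoded genes it was 0.397% to 0.413% at 6m and 0.398% to 0.410% at 24m, with no clear direction. As a sum of TPM (counts per exonic length, scaled to 1000000 in each library) it was 2715 to 2932 at 6m and 3166 to 3775 at 24m, without overlap. The mitochondrially encoded genes held 5.26% to 6.52% of the counts at 6m and 3.18% to 3.69% at 24m. The 24m replicate 1 library stood apart from the other aged libraries, with a chi-square per degree of freedom of 179 to 417 against each of them. Neuron markers (6 genes, 1 called higher and 1 lower) summed to 3287 to 3404 CPM at 6m and 3349 to 3584 CPM at 24m, oligodendrocyte markers (6 genes, 1 higher) to 3282 to 4137 and 3540 to 4159 CPM, and microglia markers (6 genes, 2 higher) to 281 to 286 and 319.5 to 369 CPM, with no marker at 0, as brain tissue should show. Endothelial markers (6 genes, Flt1 higher, Cldn5 and Ly6c1 lower) summed to 73.3 to 108 CPM at 6m and 43.9 to 65.8 CPM at 24m, without overlap, and choroid plexus markers (5 genes, Clic6 higher, Prlr lower) to 1777 to 3205 and 809.8 to 2246 CPM, again with none at 0; the part of either in the carrier values was not tested. Levels are given as counts in each 1000000 (CPM) scaled with edgeR's TMM factors (trimmed mean of M values), while levels of different genes are compared only as CPM per kb of exon. Exonic length is the union of exons of all transcripts and can far exceed the canonical transcript (12380 against 2795 bases for Slc25a40, 6785 against 2801 for Slc25a3). The order of genes by level and the ratios between genes depend on this choice. A gene was called when its Benjamini-Hochberg adjusted p in the edgeR quasi-likelihood test was at most 0.05 and its log2 fold change was at least 0.58 in size. Counts of calls in the cell type lists and in the substrate groups, most of them under 10 genes, stand beside 25.3% of all genes called higher and 18.3% called lower.

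Of the 45 carriers tested, 13 were called higher at 24m (28.9%), beside 25.3% of all genes tested, and 5 were called lower (11.1%), beside 18.3% of all genes. Those that rose were Slc25a13, Slc25a15, Slc25a16, Slc25a24, Slc25a27, Slc25a30, Slc25a32, Slc25a36, Slc25a37, Slc25a40, Slc25a42, Slc25a44 and Slc25a46, and those that fell were Slc25a2, Slc25a14, Slc25a28, Slc25a39 and Slc25a41. By the adjusted p alone 17 were higher (37.8%, beside 32.7% of all genes) and 12 were lower (26.7%, beside 29.9%). All 24m libraries lay above all 6m libraries for 15 carriers (33.3%, beside 28.4% of all genes) and below them for 9 (20.0%, beside 26.8%), and the groups overlapped for 21. The median log2 fold change of the carriers was -0.0078, beside -0.0034 for all genes tested. Without the 24m replicate 1 library 14 were called higher and 7 lower, without the 24m replicate 4 library 9 and 4, and without the 6m replicate 4 library 12 and 3. With library totals in place of TMM factors the median of all genes moved from -0.0034 to 0.21 and that of the carriers to 0.20, and 18 carriers were then called higher and 3 lower, with Slc25a14 (-0.40) and Slc25a28 (-0.39) no longer called and Slc25a23, Slc25a25, Slc25a34, Slc25a48 and Slc25a51 called higher (0.64 to 0.85). The shares of all genes called without a library or with library totals alone were not computed. These counts are therefore no result about the carriers.

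**Figure D1:**
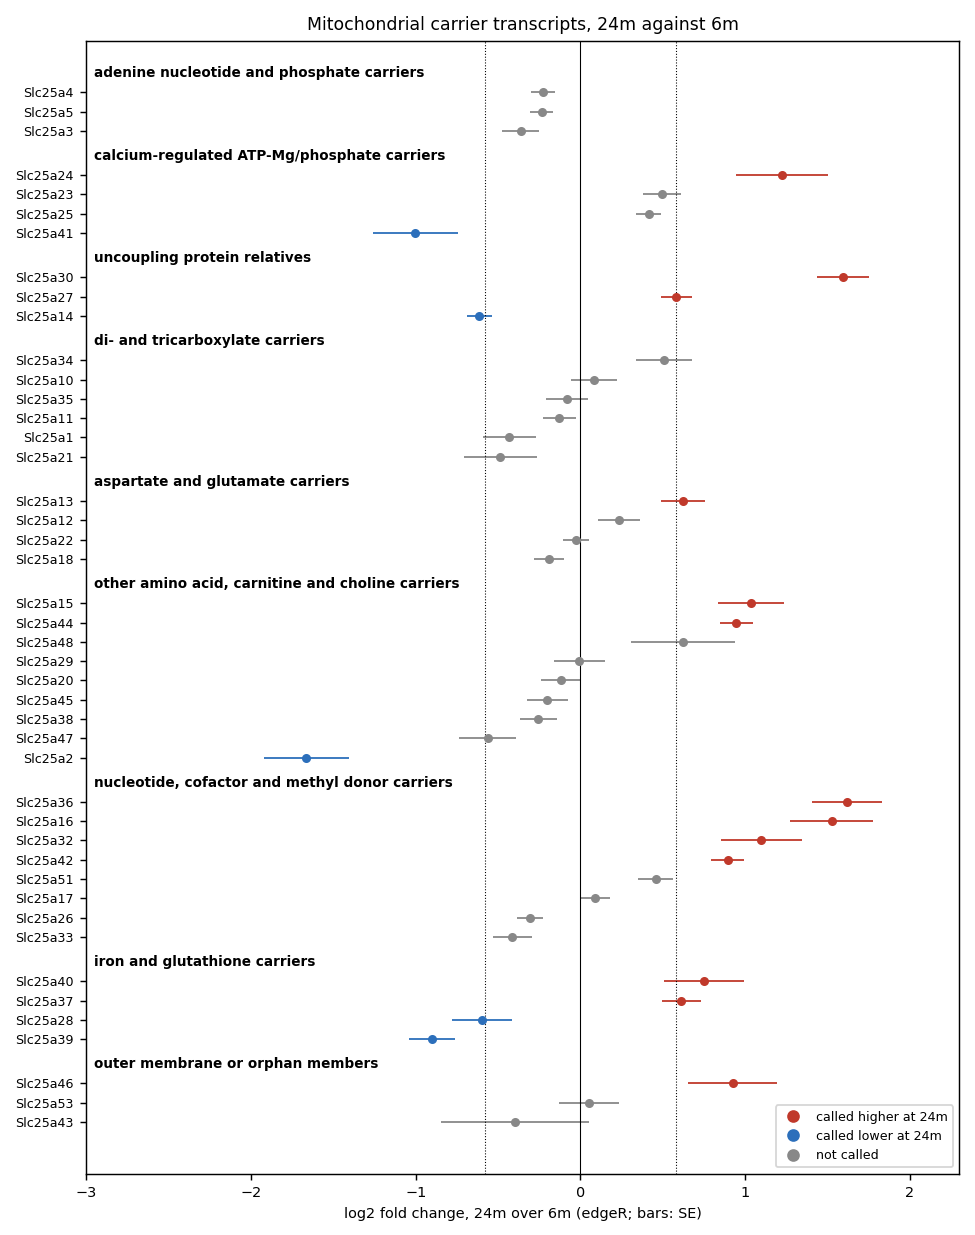
Log2 fold change of 44 of the 45 tested carriers, 24m over 6m, from the edgeR fit to 4 libraries of each age, sorted within groups of like substrate; bars are standard errors and dotted lines the fold threshold of 0.58. The 13 carriers called higher (red) reach 1.62 for Slc25a36, the 5 called lower (blue) reach -1.66 for Slc25a2, and the 3 ATP, ADP and phosphate carriers lie between -0.36 and -0.23, where Slc25a4 and Slc25a5 turned positive with a length offset and came to -0.0068 and -0.017 with library totals alone.

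The most abundant members were the adenine nucleotide translocases Slc25a4 and Slc25a5, which exchange matrix ATP for cytosolic ADP, and the phosphate carrier Slc25a3, which brings in the phosphate for ATP synthesis. Per kb of exon, Slc25a4 stood at 275 ± 6.98 at 6m and 235 ± 7.80 at 24m (SD, n = 4), Slc25a5 at 209 ± 8.41 at 6m and 177 ± 3.79 at 24m and Slc25a3 at 152 ± 6.13 at 6m and 118 ± 17.6 at 24m. These 3 genes alone made up 61.8% to 63.6% of the summed level per kb of the family in the 6m libraries and 60.2% to 62.0% in the 24m libraries. The order below them differed between the ages. At 6m Slc25a39 came next (54.0 ± 6.88), followed by Slc25a11, Slc25a33, Slc25a1, Slc25a22 and Slc25a23 between 36.1 and 38.99 CPM per kb. At 24m Slc25a23 came next (50.9 ± 7.09), followed by Slc25a22, Slc25a11, Slc25a39, Slc25a33 and Slc25a1 between 27.9 and 35.8 CPM per kb. Among the 5 genes that followed at each age, neighbours in the order overlapped in their ranges of mean ± SD.

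**Figure D2:**
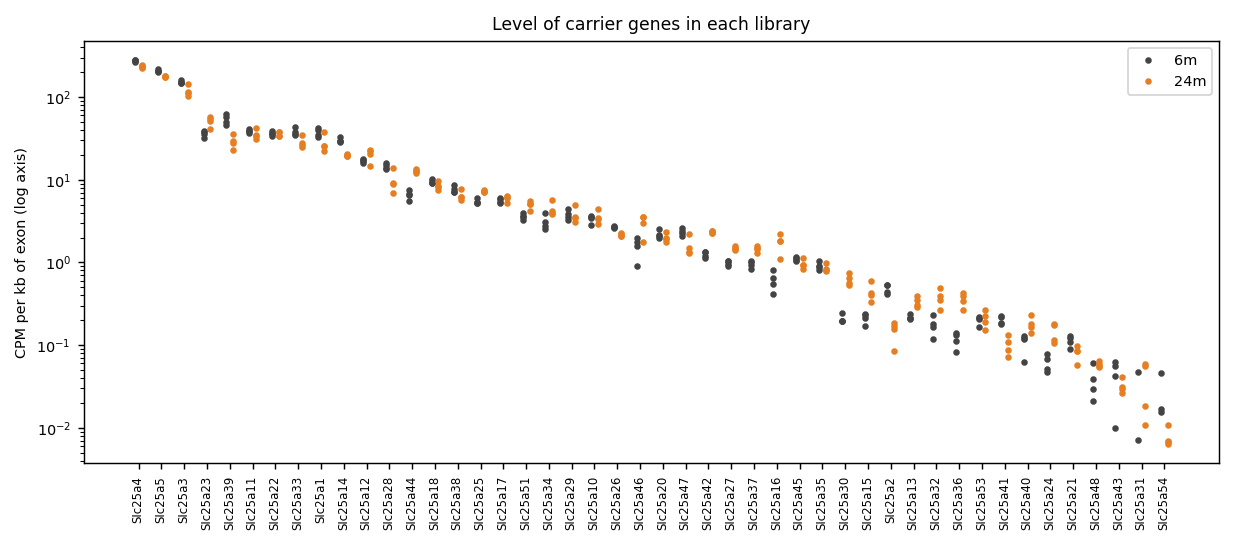
Level of 46 of the 47 carrier genes in each library, in CPM per kb of exon on a log axis, ordered by the mean over all 8 libraries (6m black, 24m orange); counts of 0, which occur for Slc25a31 and Slc25a54, cannot be drawn. The levels run from Slc25a4 at 275 (6m) and 235 (24m) down to genes near 0.01.

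None of these 3 most abundant carriers was called. Slc25a4 (chr8:46656538-46664325, minus strand, GRCm39) measured 785, 832, 825 and 812 CPM at 6m and 679.5, 673, 708 and 721 CPM at 24m, so after TMM scaling every aged library was below every young one (log2 fold change -0.23 ± 0.074 SE, edgeR adjusted p = 0.0227). Slc25a5 (chrX:36059223-36062462, plus strand) measured 363, 365, 358 and 391 CPM at 6m and 321, 311, 317 and 305 CPM at 24m, again without overlap (log2 fold change -0.24 ± 0.071 SE, edgeR adjusted p = 0.0149). The lower values of both translocases depended on the scaling and on how gene length was treated. With library totals alone the ages overlapped, and the log2 fold change was -0.0068 for Slc25a4 (edgeR adjusted p = 0.943) and -0.017 for Slc25a5 (edgeR adjusted p = 0.798). A fit with an offset for gene length gave 0.058 and 0.33. Slc25a5 overlaps Steep1 on the other strand, and whether the counting used strand was not stated. The phosphate carrier Slc25a3 (chr10:90951400-90975683, minus strand) measured 1044, 998, 1003 and 1087 CPM at 6m and 972, 770.4, 778 and 691 CPM at 24m. Its aged libraries were all below the young ones, with 24m replicate 1 closest to them (log2 fold change -0.36 ± 0.11 SE, edgeR adjusted p = 0.0168, and -0.54 with the length offset). With library totals alone it overlapped between ages and gave -0.15 (edgeR adjusted p = 0.105). The germ cell translocase Slc25a31 was not tested, with 1, 0, 6 and 0 counts at 6m and 4, 10, 10 and 2 counts at 24m, and the 4 germ cell markers of the testis (Prm1, Prm2, Tnp1 and Ldhc) summed to 0.0663 to 0.162 CPM in any library, with each of the 4 at 0 in at least 1 library.

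The calcium-regulated carriers exchange ATP-Mg for phosphate and so set the nucleotide content of the matrix. Slc25a23 (chr17:57350705-57366905, minus strand), the most abundant of them, measured 192, 234, 225 and 213 CPM at 6m and 246, 321, 345 and 306 CPM at 24m. The 4 aged libraries were all above the young ones, and the difference met the adjusted p while staying under the fold threshold (log2 fold change 0.49 ± 0.11 SE, edgeR adjusted p = 0.00434), which it passed without the 24m replicate 1 library (0.59). Slc25a25 (chr2:32303547-32341482, minus strand) measured 47.4, 48.0, 48.7 and 54.5 CPM at 6m and 65.2, 68.6, 64.4 and 66.7 CPM at 24m, likewise without overlap and under the fold threshold (log2 fold change 0.41 ± 0.076 SE, edgeR adjusted p = 0.00127, and 0.077 with the length offset). Slc25a24 (chr3:109030317-109075773, plus strand) was near the limit of detection in brain, with 11, 13, 17 and 16 counts at 6m and 39, 51, 34 and 55 counts at 24m. It rose 2.34-fold (log2 fold change 1.22 ± 0.28 SE, edgeR adjusted p = 0.00395), and its aged libraries were above the young ones after scaling. Slc25a41, a short member of the set without the calcium-binding domain and next to Slc25a23 on chromosome 17, had 16, 17, 18 and 19 counts at 6m and 15, 14, 8 and 10 counts at 24m. It fell (log2 fold change -1.002 ± 0.26 SE, edgeR adjusted p = 0.00762), a call that was lost with the length offset (-0.36), and its exonic length of 1331 bases is the smallest in the family.

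Slc25a14, Slc25a27 and Slc25a30 are relatives of the uncoupling proteins that are expressed in brain, and both directions occurred among them. Slc25a30 (chr14:75997556-76024490, minus strand) rose 3.02-fold, measuring 0.945, 0.948, 1.18 and 0.953 CPM at 6m and 2.61, 2.76, 3.17 and 3.61 CPM at 24m (log2 fold change 1.59 ± 0.16 SE, edgeR adjusted p = 6.75e-05). The lowest aged library was more than 2 times the highest young one, and the call held in each of the 23 alternative fits, with 1.59 under the length offset. Slc25a27 (chr17:43951526-43978105, minus strand) measured 9.68, 11.1, 10.9 and 10.1 CPM at 6m and 15.8, 14.9, 15.2 and 16.7 CPM at 24m. It was at the edge of the fold threshold (log2 fold change 0.58 ± 0.093 SE, edgeR adjusted p = 0.000626), with no overlap between ages, and was under it when replicate 1 of 6m (0.55), replicate 4 of 6m (0.57) or replicate 4 of 24m (0.55) was left out, and with the length offset (0.19). The Slc25a27 call held in only 10 of 23 alternative fits, and was also lost with RLE and upper-quartile factors, both DESeq2 fits, the 1 CPM filter, the GC offset and thinning. Slc25a14 (chrX:47712288-47751179, plus strand) fell, measuring 79.6, 77.6, 79.9 and 90.01 CPM at 6m and 55.9, 52.6, 53.3 and 51.8 CPM at 24m. The 4 aged libraries lay close together below all young ones (log2 fold change -0.61 ± 0.077 SE, edgeR adjusted p = 0.000181), and the fold was under the threshold without 6m replicate 4 (-0.57) and with the length offset (-0.28). The Slc25a14 call was also lost with library totals alone (-0.40) and with DESeq2 on quantile-normalized counts. Of the uncoupling proteins and carrier homologs outside the symbol rule (Ucp1, Ucp2, Ucp3, Mtch1 and Mtch2), Ucp1 was not tested. By the adjusted p alone 1 of the other 4 was higher (Ucp3, 0.56) and 3 were lower (Mtch1 at -0.52, Mtch2 at -0.43 and Ucp2), beside 32.7% and 29.9% of all genes. Only Ucp2, which is known from microglia and neurons, was called (log2 fold change -0.62 ± 0.18 SE, edgeR adjusted p = 0.014), beside 18.3% of all genes called lower. It measured 115, 97.2, 87.7 and 120.2 CPM at 6m and 94.3, 66.6, 61.6 and 50.7 CPM at 24m, so 24m replicate 1 lay within the young range. The call was lost without replicate 1 (-0.57) or 4 (-0.55) of 6m, without replicate 3 (-0.57) or 4 (-0.50) of 24m, and with library totals alone (-0.41) or a GC offset (-0.51). It was also lost with DESeq2 on quantile-normalized counts (-0.56).

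None of the 6 carriers of di- and tricarboxylates, which move intermediates of the citric acid cycle, was called by edgeR. By the adjusted p alone 1 was higher and 1 lower, which are smaller shares than the 32.7% and 29.9% of all genes. The oxoglutarate carrier Slc25a11, which exchanges oxoglutarate for malate, measured 162, 163, 153 and 172 CPM at 6m and 177, 144, 143 and 131 CPM at 24m. The dicarboxylate carrier Slc25a10 measured 20.3, 19.7, 16.3 and 20.9 CPM at 6m and 25.7, 19.1, 19.9 and 16.9 CPM at 24m. The ages overlapped for both (-0.13 and 0.080 as log2 fold changes, edgeR adjusted p = 0.282 and 0.635). Their relatives Slc25a34 and Slc25a35, whose substrates are less well known, were measured at lower levels. Slc25a34 measured 7.04, 8.53, 7.65 and 10.9 CPM at 6m and 15.4, 10.6, 11.5 and 10.8 CPM at 24m, and the 6m replicate 4 library lay within the aged range (log2 fold change 0.51 ± 0.17 SE, edgeR adjusted p = 0.0264). Slc25a35 measured 4.12, 4.23, 3.82 and 4.83 CPM at 6m and 3.82, 3.91, 4.65 and 3.67 CPM at 24m (log2 fold change -0.083 ± 0.13 SE, edgeR adjusted p = 0.591). The citrate carrier Slc25a1, which exports citrate for lipid synthesis, gave -0.43 (edgeR adjusted p = 0.0387) as log2 fold change with overlapping ages, and was called lower without the 24m replicate 1 library (-0.61). With the length offset it was -0.051 (edgeR adjusted p = 0.697), and with library totals alone -0.22 (edgeR adjusted p = 0.155). The oxodicarboxylate carrier Slc25a21 gave -0.49 (edgeR adjusted p = 0.0822) at under 1 CPM.

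The aspartate-glutamate carriers of the malate-aspartate shuttle and the glutamate carriers feed glutamate metabolism. Slc25a12 (chr2:71101407-71198167, minus strand), the form prominent in neurons, measured 134, 147, 143 and 142 CPM at 6m and 123, 169, 183 and 191 CPM at 24m. Its 24m replicate 1 library lay below all young libraries and the other aged ones above them (log2 fold change 0.23 ± 0.13 SE, edgeR adjusted p = 0.133). Slc25a13, the form prominent in liver, measured 2.39, 2.12, 2.14 and 2.16 CPM at 6m and 2.95, 3.54, 3.13 and 3.93 CPM at 24m and rose without overlap (log2 fold change 0.62 ± 0.13 SE, edgeR adjusted p = 0.00297). That call was lost without 24m replicate 4 (0.54), with the length offset (0.23), with the GC offset (0.37) and with DESeq2 on quantile-normalized counts. The glutamate carrier Slc25a22 (chr7:141009649-141017832, minus strand) measured 220.3, 244, 236 and 254 CPM at 6m and 224, 246, 246 and 221 CPM at 24m, and the ages overlapped closely (log2 fold change -0.025 ± 0.079 SE, edgeR adjusted p = 0.793). Slc25a18, the glutamate carrier known from astrocytes, measured 111, 105, 107 and 118 CPM at 6m and 111, 95.6, 93.3 and 86.7 CPM at 24m. Its 24m replicate 1 library lay within the young range and the other aged libraries below it (log2 fold change -0.19 ± 0.091 SE, edgeR adjusted p = 0.0941), and it was called lower with the length offset (-0.60). Reads of Slc25a18 may be shared with Atp6v1e1 on the other strand. Of the 8 astrocyte markers listed, 5 were called higher (Gfap, Aqp4, Slc1a2, Slc1a3 and Gja1) and 1 lower (S100b), beside 25.3% and 18.3% of all genes, none was at 0, and their summed level was 2786 to 3702 CPM at 6m and 2789 to 3713 CPM at 24m; their part in the values of Slc25a18 was not tested. The 4 soluble enzymes of the shuttle were not called, although Mdh1 (-0.33) and Mdh2 (-0.52) passed the adjusted p as lower and Got1 (0.22) and Got2 (0.48) as higher on the log2 fold change scale.

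Among the other amino acid, carnitine and choline carriers, 2 of 9 rose and 1 fell, which are smaller shares than the 25.3% and 18.3% of all genes. Slc25a44 (chr3:88317802-88332564, minus strand), which imports branched-chain amino acids, had the smallest adjusted p of the set, with 27.1, 36.0, 31.6 and 32.9 CPM at 6m and 58.2, 61.1, 65.2 and 61.3 CPM at 24m. The aged level was 1.93-fold the young one, with a wide gap between the groups (log2 fold change 0.95 ± 0.10 SE, edgeR adjusted p = 7.61e-05, and 0.94 with the length offset). The ornithine carrier Slc25a15 of the urea cycle (chr8:22865516-22889423, minus strand) measured 1.94, 2.14, 2.09 and 1.51 CPM at 6m and 2.97, 3.64, 3.79 and 5.34 CPM at 24m. It rose without overlap (log2 fold change 1.04 ± 0.20 SE, edgeR adjusted p = 0.0016), and its call held in all 23 alternative fits. The related basic amino acid carrier Slc25a29 measured 24.3, 22.3, 20.3 and 28.0 CPM at 6m and 30.9, 22.2, 21.7 and 19.5 CPM at 24m. Its ages overlapped (log2 fold change -0.0078 ± 0.16 SE, edgeR adjusted p = 0.967), and Slc25a29 and Slc25a47 overlap each other on opposite strands, so their counts are uncertain. The second ornithine carrier Slc25a2 had 47, 39, 36 and 47 counts at 6m and 26, 17, 19 and 10 counts at 24m, and it fell to the lowest fold change in the family (log2 fold change -1.66 ± 0.26 SE, edgeR adjusted p = 0.000521, and -1.03 with the length offset) at under 1 CPM. It lies among the protocadherin genes, and Pcdha4b overlaps it on the other strand. The other 5 were not called: Slc25a47, a carrier prominent in liver, gave -0.56 (edgeR adjusted p = 0.0178) as log2 fold change and was called lower without 24m replicate 1 (-0.75), but came to -0.33 (edgeR adjusted p = 0.0587) with the length offset and -0.36 (edgeR adjusted p = 0.0644) with library totals alone, and the carnitine-acylcarnitine carrier Slc25a20, the glycine carrier Slc25a38, Slc25a45 and the choline carrier Slc25a48 gave -0.12, -0.25, -0.20 and 0.62, all with overlap between ages.

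The nucleotide, cofactor and methyl donor carriers had 4 of 9 members called higher and none lower by edgeR, beside 25.3% and 18.3% of all genes. By the adjusted p alone 5 were higher and 2 lower, beside 32.7% and 29.9%, and a group of 9 gives no more than a description. Slc25a36 (chr9:96950238-96993267, minus strand), a pyrimidine nucleotide carrier that serves mitochondrial DNA and RNA synthesis, measured 1.31, 1.598, 1.53 and 0.953 CPM at 6m and 3.03, 4.57, 3.99 and 4.98 CPM at 24m. It rose 3.07-fold without overlap (log2 fold change 1.62 ± 0.21 SE, edgeR adjusted p = 0.000216), and the length offset gave 1.18. Slc25a16 (chr10:62756404-62782282, plus strand), a carrier linked to coenzyme A, measured 2.77, 4.07, 3.30 and 2.12 CPM at 6m and 5.54, 9.26, 9.15 and 11.4 CPM at 24m. It rose 2.88-fold (log2 fold change 1.52 ± 0.25 SE, edgeR adjusted p = 0.000717), with 24m replicate 1 the lowest aged library and 6m replicate 4 the lowest young one. Slc25a42 (chr8:70636988-70664966, minus strand), the other coenzyme A carrier, measured 7.09, 8.53, 8.48 and 7.43 CPM at 6m and 14.1, 15.3, 14.97 and 14.2 CPM at 24m. It had the tighter groups of the pair and rose 1.86-fold (log2 fold change 0.89 ± 0.10 SE, edgeR adjusted p = 0.00012); it overlaps Tmem161a on the other strand. The folate and FAD carrier Slc25a32 (chr15:38954620-38976159, minus strand) measured 1.04, 1.13, 1.44 and 0.741 CPM at 6m and 1.64, 2.18, 2.45 and 3.05 CPM at 24m and rose without overlap (log2 fold change 1.10 ± 0.24 SE, edgeR adjusted p = 0.00347). The calls of these 4 genes held in all 23 alternative fits. Slc25a33 (chr4:149828491-149858751, minus strand), the other pyrimidine nucleotide carrier, measured 108, 101, 100.3 and 122 CPM at 6m and 99.1, 78.4, 75.6 and 70.4 CPM at 24m. Its aged libraries were all below the young ones, but its fold was under the threshold (log2 fold change -0.41 ± 0.12 SE, edgeR adjusted p = 0.012). It came to -0.12 (edgeR adjusted p = 0.239) with the length offset and -0.20 (edgeR adjusted p = 0.0634) with library totals alone. The NAD carrier Slc25a51 and the S-adenosylmethionine carrier Slc25a26 also passed the adjusted p alone, at 0.46 (edgeR adjusted p = 0.00456) and -0.31 (edgeR adjusted p = 0.00725) on the log2 fold change scale (Slc25a51 0.28 with the length offset, Slc25a26 -0.55 with it and -0.093 with library totals alone), and the peroxisomal carrier Slc25a17 gave 0.087 with overlapping ages.

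All 4 iron and glutathione carriers were called, 2 in each direction, beside 25.3% of all genes called higher and 18.3% lower. The calls of Slc25a40 and Slc25a37 held in 16 of 23 alternative fits each and that of Slc25a28 in 15. Slc25a39 (chr11:102292585-102299602, minus strand), which brings glutathione into mitochondria, was the most abundant called member and fell 1.87-fold, measuring 269, 218, 238 and 291 CPM at 6m and 166, 140.3, 130.2 and 108 CPM at 24m. The highest aged library was below the lowest young one (log2 fold change -0.90 ± 0.14 SE, edgeR adjusted p = 0.000553), and the call held in all 23 alternative fits. It overlaps Rundc3a on the other strand. Its relative Slc25a40 (chr5:8472804-8504839, plus strand) measured 1.46, 1.51, 1.58 and 0.772 CPM at 6m and 1.76, 2.07, 2.26 and 2.88 CPM at 24m. It rose (log2 fold change 0.75 ± 0.24 SE, edgeR adjusted p = 0.0219), with a low value in 6m replicate 4, and the call was lost without that library (0.56), without 24m replicate 4 (where the log2 fold change was 0.61) and with the length offset (0.30). The Slc25a40 call was also lost with the GC offset (0.51) and with DESeq2 on quantile-normalized counts. Slc25a37 (chr14:69479297-69522561, minus strand), the mitoferrin that supplies iron to red cell precursors, measured 5.61, 6.12, 6.19 and 4.96 CPM at 6m and 7.83, 8.65, 9.05 and 9.45 CPM at 24m. It rose without overlap (log2 fold change 0.61 ± 0.12 SE, edgeR adjusted p = 0.00154), and its fold was under the threshold without 6m replicate 4 (0.55), without 24m replicate 4 (0.57) and with the length offset (0.50). The Slc25a37 call was also lost with the GC offset (0.50) and with DESeq2 on quantile-normalized counts. Slc25a28 (chr19:43650480-43664460, minus strand), the mitoferrin of other tissues, measured 109, 94.7, 97.5 and 106 CPM at 6m and 96.4, 63.9, 61.5 and 47.7 CPM at 24m. It was called lower (log2 fold change -0.60 ± 0.18 SE, edgeR adjusted p = 0.0172), but the 24m replicate 1 library lay within the young range. The call was lost when replicate 1 (-0.56) or replicate 4 (-0.58) of the young animals was left out, and when replicate 2 (-0.57), replicate 3 (-0.56) or replicate 4 (-0.46) of the aged ones was. It was also lost with library totals alone (-0.39), the GC offset (-0.50) and DESeq2 on quantile-normalized counts. Leaving out 24m replicate 1 gave -0.81. All 5 erythroid genes listed (Hba-a1, Hba-a2, Hbb-bs, Hbb-bt and Alas2) were called lower, beside 18.3% of all genes, none was at 0, and their summed level was 5426 to 7605 CPM at 6m and 1242 to 4156 CPM at 24m; their part in the values of Slc25a37, Slc25a39 and the other carriers was not tested.

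Of the members in the outer membrane or without a known substrate, Slc25a46, an outer membrane protein of mitochondrial fission and fusion, was called higher. It measured 10.6, 13.4, 11.9 and 6.08 CPM at 6m and 11.9, 23.7, 20.3 and 23.7 CPM at 24m, so 24m replicate 1 lay within the young range and the other aged libraries above it (log2 fold change 0.92 ± 0.27 SE, edgeR adjusted p = 0.0136). Slc25a53 and Slc25a43 gave 0.052 (edgeR adjusted p = 0.817) and -0.40 (edgeR adjusted p = 0.462) on the log2 fold change scale, and Slc25a54, with 2, 2, 5 and 0 counts at 6m and 2, 1, 1 and 1 counts at 24m, was not tested.

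**Figure D3:**
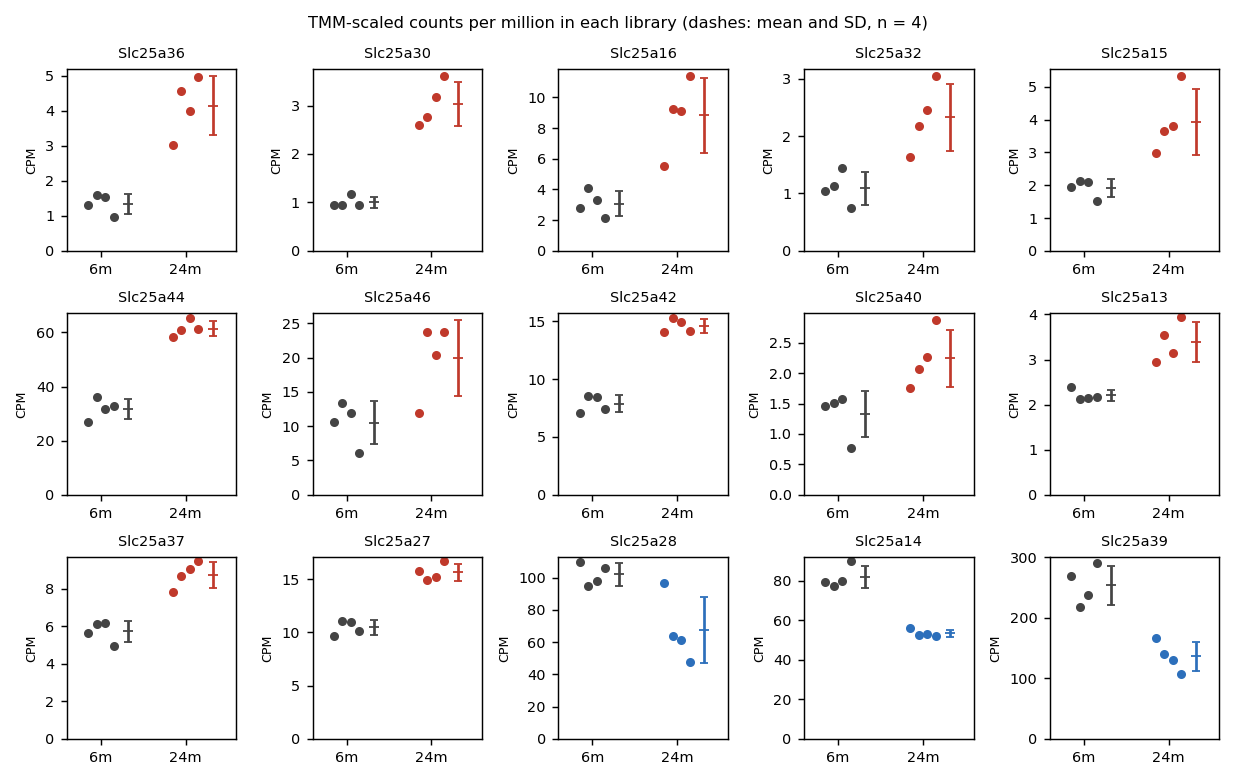
TMM-scaled CPM in each library for the 15 called carriers with a mean of at least 1 CPM (points in the order of replicates 1 to 4, dashes and bars the mean and SD of 4 libraries, axes from 0). The ages do not overlap except for Slc25a46 and Slc25a28, where 24m replicate 1 lies within the 6m range.

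By level of expression, none of the 3 carriers at 100 CPM per kb or more was called, beside 3.37% called higher and 55.3% lower among all genes of that level. Of the 9 carriers between 10 and 100 CPM per kb none was called higher and 3 (Slc25a14, Slc25a28 and Slc25a39) were called lower, beside 11.7% and 29.2% of all genes there. Of the 19 between 1 and 10 CPM per kb 6 were called higher and none lower by edgeR, beside 26.5% and 15.7%, and of the 14 tested carriers below 1 CPM per kb 7 were called higher and 2 lower, beside 32.1% and 13.2%. Across the 45 carriers, Spearman's rho of mean level per kb with log2 fold change was -0.34, beside -0.22 across all genes. Genes are not independent replicates, so these are descriptions.

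Pairs of closely related carriers were compared as the log2 ratio of their levels per kb within each library, which carries no scaling factor. For 15 pairs, some of which share a gene, the ratio was compared between ages with a two-sided exact permutation test over 70 assignments of the libraries. None passed after Benjamini-Hochberg adjustment over the 15 pairs, and 7 pairs whose ages did not overlap reached p = 0.0286, the smallest that 4 against 4 libraries allow (adjusted p = 0.0612, exact permutation). The largest difference was that of Slc25a14 over Slc25a30, at 7.23, 7.19, 6.92 and 7.39 at 6m and 5.26, 5.09, 4.91 and 4.69 at 24m on the log2 scale. The mean ratio went from 145-fold to 31.8-fold, a difference of -2.19 in log2, and the corresponding difference of the fold changes with the length offset was -1.87. The pyrimidine nucleotide carriers Slc25a33 over Slc25a36 were at 8.38, 7.99, 8.05 and 9.01 at 6m and 7.05, 6.12, 6.26 and 5.84 at 24m, with the mean ratio at 328-fold at 6m and 79.8-fold at 24m (-2.04 in log2, and -1.30 with the length offset). Slc25a39 over Slc25a40 was at 8.91, 8.56, 8.63 and 9.94 at 6m and 7.96, 7.47, 7.24 and 6.62 at 24m (-1.69 in log2, and -1.19 with the length offset). After TMM scaling, the more abundant gene of each of these 3 pairs was lower and the scarcer one higher in the aged libraries. The more abundant gene stayed so by a wide margin. It was also the shorter in each pair (2701, 2844 and 4706 bases of exon, against 4849, 11539 and 12380). Slc25a33 was not called, at -0.12 with the length offset and -0.20 with library totals alone. In the level ranges of these genes, 29.2% of all genes (10 to 100 CPM per kb) were called lower and 32.1% (below 1 CPM per kb) higher.

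The other pairs without overlap were Slc25a28/Slc25a37 (-1.26 in log2, and -1.28 with the length offset), Slc25a14/Slc25a27 (-1.20, and -0.47), Slc25a34/Slc25a35 (0.59, and 0.89) and Slc25a10/Slc25a11 (0.21, and 0.054). The translocases Slc25a4 and Slc25a5, whose coding sequences are 77.6% identical, had a log2 ratio of 0.37, 0.45, 0.46 and 0.31 at 6m and 0.34, 0.37, 0.42 and 0.50 at 24m. The mean difference was 0.0094 (exact permutation p = 0.8), and leaving out 1 library at a time gave -0.021 to 0.031, but the difference of the fold changes with the length offset was -0.27. Reads that fit both genes of a pair may have been split or dropped, and how the counting treated them was not stated.

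**Figure D4:**
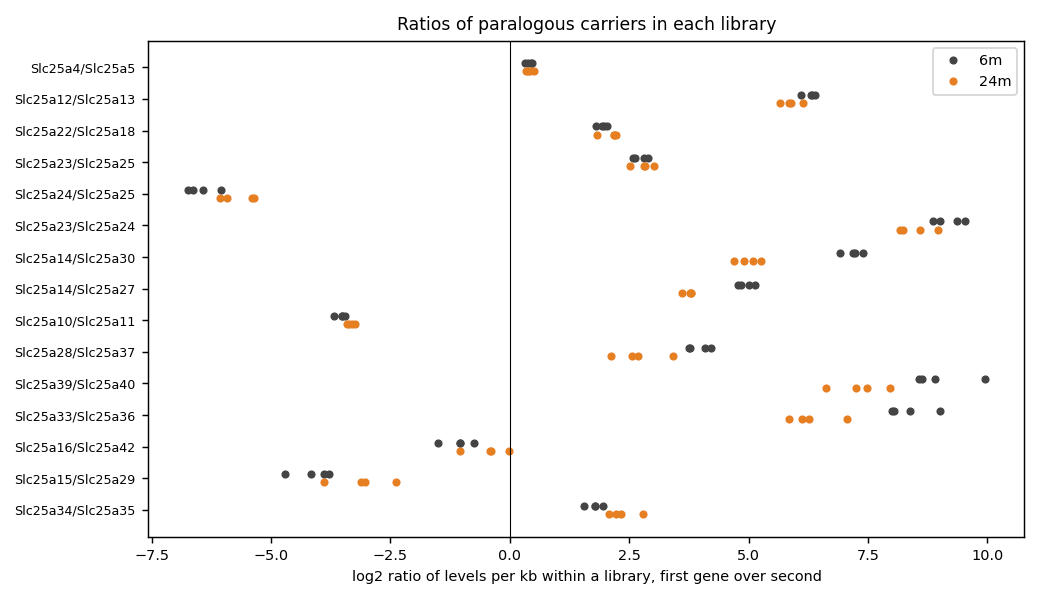
Log2 ratio of the levels per kb of 2 related carriers within each library, first gene over second, for 15 pairs (6m black, 24m orange, 4 libraries each). Slc25a14/Slc25a30, Slc25a33/Slc25a36 and Slc25a39/Slc25a40 shift to lower ratios at 24m by 2.19, 2.04 and 1.69, while Slc25a4/Slc25a5 stays between 0.31 and 0.50.

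The promoters of Slc25a14/Slc25a30, Slc25a33/Slc25a36 and Slc25a39/Slc25a40 are shown because these 3 pairs had the largest differences in log2 ratio of the 15. The sequences are from RefSeq (build GRCm38.p6), which gave an entry for 36 of the 47 carriers (with none for Slc25a2, Slc25a26, Slc25a27, Slc25a32, Slc25a35, Slc25a37, Slc25a41, Slc25a44, Slc25a46 and Slc25a51 among others), and run 5′ to 3′ from 250 bases before to 50 bases after the start. They lie at chrX:48623198-48623497 (plus strand) for Slc25a14, chr14:75786988-75787287 (minus strand) for Slc25a30, chr4:149774218-149774517 (minus strand) for Slc25a33, chr9:97110992-97111291 (minus strand) for Slc25a36, chr11:102407468-102407767 (minus strand) for Slc25a39 and chr5:8422588-8422887 (plus strand) for Slc25a40. Capitals mark matches on either strand to the GC box, written GGGCGG, to the letters CCAAT, and to the cyclic AMP response element, written TGACGTCA, and no marked matches overlap each other. The TATA box, written TATAAA, and the letters GCGCATGC known for NRF1, CCGGAAGT known for ETS factors, AAGGTCA known for ERR and AAGATGGC known for YY1 were searched in the same way and did not occur in these 6 windows.
Slc25a14: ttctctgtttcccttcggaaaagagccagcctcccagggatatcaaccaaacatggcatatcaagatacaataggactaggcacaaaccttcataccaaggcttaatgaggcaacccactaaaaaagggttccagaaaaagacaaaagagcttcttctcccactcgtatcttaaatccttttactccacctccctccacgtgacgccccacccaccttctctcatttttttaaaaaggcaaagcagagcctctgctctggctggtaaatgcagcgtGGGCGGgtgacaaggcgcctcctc
Slc25a30: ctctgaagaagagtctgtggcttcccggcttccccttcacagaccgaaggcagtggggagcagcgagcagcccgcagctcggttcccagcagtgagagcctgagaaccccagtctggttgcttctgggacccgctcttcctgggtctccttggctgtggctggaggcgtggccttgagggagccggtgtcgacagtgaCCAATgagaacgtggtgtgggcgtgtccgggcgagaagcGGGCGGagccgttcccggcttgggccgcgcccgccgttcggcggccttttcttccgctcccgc
Slc25a33: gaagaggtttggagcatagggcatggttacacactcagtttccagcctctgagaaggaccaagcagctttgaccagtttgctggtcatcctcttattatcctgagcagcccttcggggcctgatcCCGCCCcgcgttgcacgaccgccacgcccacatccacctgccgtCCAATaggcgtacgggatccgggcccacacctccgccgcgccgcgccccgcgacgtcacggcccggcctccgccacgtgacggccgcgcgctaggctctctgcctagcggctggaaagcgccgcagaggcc
Slc25a36: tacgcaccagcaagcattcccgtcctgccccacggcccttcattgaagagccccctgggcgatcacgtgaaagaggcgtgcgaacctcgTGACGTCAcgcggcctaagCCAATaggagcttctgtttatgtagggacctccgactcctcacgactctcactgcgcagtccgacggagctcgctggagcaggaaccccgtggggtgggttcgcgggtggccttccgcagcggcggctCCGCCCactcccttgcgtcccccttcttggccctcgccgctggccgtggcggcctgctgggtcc
Slc25a39: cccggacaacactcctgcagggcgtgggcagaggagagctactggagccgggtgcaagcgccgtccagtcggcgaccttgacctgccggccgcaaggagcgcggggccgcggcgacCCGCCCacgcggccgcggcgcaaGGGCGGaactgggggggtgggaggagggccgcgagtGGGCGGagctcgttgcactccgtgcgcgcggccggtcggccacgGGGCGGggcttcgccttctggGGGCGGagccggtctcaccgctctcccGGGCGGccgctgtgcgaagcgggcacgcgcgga
Slc25a40: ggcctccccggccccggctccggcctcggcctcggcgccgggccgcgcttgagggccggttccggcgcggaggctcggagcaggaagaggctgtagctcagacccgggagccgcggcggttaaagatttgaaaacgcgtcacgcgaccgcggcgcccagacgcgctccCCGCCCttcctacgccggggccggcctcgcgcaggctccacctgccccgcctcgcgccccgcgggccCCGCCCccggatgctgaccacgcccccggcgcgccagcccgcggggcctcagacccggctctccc

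Slc25a39 held 6 GC boxes in this window, Slc25a40 2, and Slc25a14, Slc25a30, Slc25a33 and Slc25a36 1 each. A CCAAT box was present in Slc25a30, Slc25a33 and Slc25a36, and Slc25a36 also held the cyclic AMP response element, found in 1.88% of 27025 promoters. Among the 36 carriers with an entry, 83.3% held a GC box, beside 35.9% of all promoters, with 7 of 8 carriers called higher, 3 of 3 called lower and 19 of 23 not called. A CCAAT box was found in 47.2% of the carriers and 37.9% of all promoters, and a TATA box in 2.78% and 14.2%. The median carrier promoter had 17 CpG dinucleotides and a GC content of 60.2%, beside 7 and 52.7% for all promoters. The 27025 promoters were not limited to protein-coding genes or to genes tested in brain, so they are an unlike set beside the carriers. These matches are descriptions of the letters and were not tested as sites.

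The fold changes were also set against gene length. Across the 45 carriers, Spearman's rho of exonic length with log2 fold change was 0.42, and across 16677 genes it was also 0.42. The 15 shortest carriers (1331 to 4664 bases of exon) had a median log2 fold change of -0.24 with 1 called higher and 3 lower, while all genes of that length had -0.30 with 10.7% higher and 28.4% lower. The 15 carriers of 4685 to 6720 bases had 0.46 with 6 higher and 1 lower, beside 0.045, 25.5% and 13.1% for all genes of that length. The 15 of 6745 to 15546 bases had 0.23 with 6 higher and 1 lower, beside 0.33, 38.0% and 8.69%. With a smooth offset for length in each library the correlation was 0.0044, and 10 carriers were called higher (beside 21.5% of all genes) and 4 lower (beside 17.0%). Of these, 9 and 3 were also called without the offset. Slc25a13, Slc25a27, Slc25a37 and Slc25a40 were then no longer called higher and Slc25a14 and Slc25a41 no longer lower, while Slc25a34 (0.82) was called higher and Slc25a18 (-0.60) lower. Spearman's rho of exonic GC content with log2 fold change was -0.38 across the carriers, beside -0.21 across all genes. Median exonic GC content was 44.5% for carriers called higher, 54.2% for those called lower and 51.4% for those not called. With an offset for GC content in place of length, Slc25a13, Slc25a27, Slc25a37 and Slc25a40 were again not called higher and Slc25a28 was not called lower, while Slc25a23 (0.61) and Slc25a34 (0.68) were called higher and Slc25a21 (-0.76) lower. The part of length or GC content in these fold changes, apart from these offsets, was not tested.

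**Figure D5:**
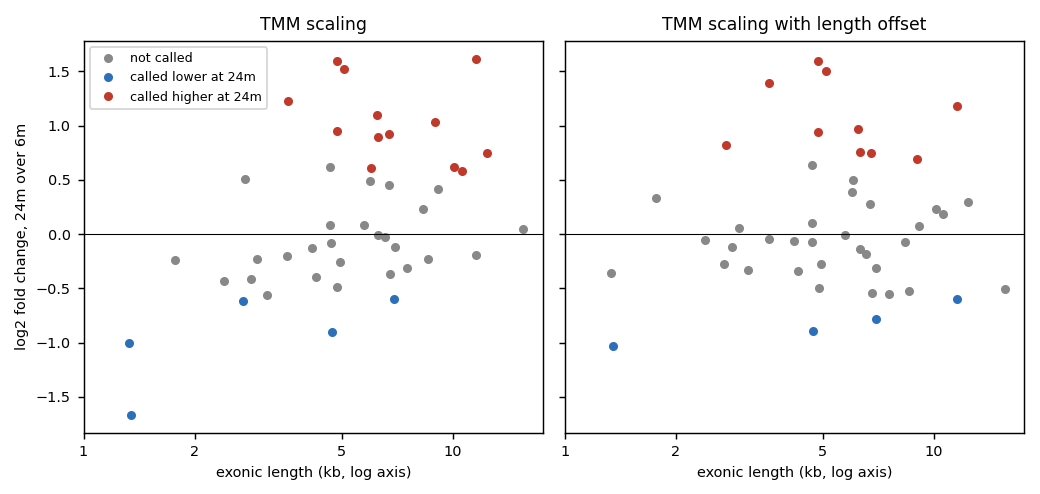
Log2 fold change of the 45 tested carriers against exonic length in kb (log axis), with TMM scaling alone (left) and with a length offset in each library (right); colours mark the calls of each fit. Spearman's rho is 0.42 on the left and 0.0044 on the right, and calls go from 13 higher and 5 lower to 10 and 4.

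The machinery that imports and inserts carriers was measured beside them. Of 13 genes listed, 7 fell (Tomm22, Timm8b, Timm9, Timm10, Timm10b, Timm13 and Timm22), beside 18.3% of all genes called lower, and 2 rose, beside 25.3% called higher, with a median log2 fold change of -0.62, beside -0.0034 for all genes. The small chaperones of the intermembrane space Timm13, Timm8b and Timm10 fell by 1.19, 1.05 and 1.01 on the log2 scale (edgeR adjusted p = 0.000917, 0.000346 and 0.000304). The channel subunit Timm22 gave -0.71 (edgeR adjusted p = 0.00118), Timm9 -0.66 (edgeR adjusted p = 0.000369), Timm10b -0.95 (edgeR adjusted p = 0.00146) and the receptor subunit Tomm22 -0.62 (edgeR adjusted p = 0.00624). Omitting replicate 3 (-0.578) or 4 (-0.52) of 24m ended the Tomm22 call. The length offset (-0.33), library totals alone (-0.42) and DESeq2 on quantile-normalized counts (-0.56) ended it too. The calls of Timm9 (-0.44) and Timm22 (-0.49) ended with library totals alone. The carrier receptor Tomm70a (log2 fold change 1.14 ± 0.22 SE, edgeR adjusted p = 0.00152) and the TIM22 subunit Timm29 (log2 fold change 0.81 ± 0.10 SE, edgeR adjusted p = 0.000186) rose. Among 21 other mitochondrial transporters 4 were called higher and 3 lower, which are smaller shares than those of all genes (25.3% and 18.3%), so the count is no result about them. They included the calcium uniporter pore Mcu at 1.03 (edgeR adjusted p = 4.46e-05), the sideroflexin Sfxn5 at 1.15 (edgeR adjusted p = 2.36e-05) and the ABC transporter Abcb10 at 0.97 (edgeR adjusted p = 6.89e-05), against the inhibitory uniporter subunit Mcub at -0.92 (edgeR adjusted p = 0.000437), the uniporter regulator Smdt1 at -1.20 (edgeR adjusted p = 0.000596) and the pyruvate carrier subunit Mpc2 at -0.59 (edgeR adjusted p = 0.000539), all on the log2 fold change scale. With the length offset Sfxn5 was no longer called (0.53) and Mcu came to 0.583, and Mcu was no longer called with length and GC offsets (0.54). The Mpc2 call ended when replicate 3 (-0.577) or 4 (-0.53) of 24m was omitted, with library totals alone (-0.38) and with DESeq2 on quantile-normalized counts (-0.51).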

How the data were processed

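Polyadenylated RNA of 8 brains was made into directional libraries (NEBNext Ultra II) and sequenced as paired-end reads. The authors trimmed reads with Trim Galore 0.4.11, aligned them to GRCm39 with HISAT2 2.1.0 and counted them with featureCounts, and deposited the table as whole-number counts per Ensembl gene and library, without normalization or pooling. How strand and multimapping reads were treated was not given in the sources used here. Symbols, positions and exonic lengths (union of exons) came from a later annotation of GRCm39, matched by identifier, with no match for 149 of 22430 genes.

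The filter kept genes above 5 counts in 4 or more libraries, which were fitted together with edgeR 4.0.16 (R 4.3.3, quasi-likelihood test, TMM factors, age as the only term), and p-values were adjusted by Benjamini-Hochberg over all 16730. Thresholds were an adjusted p of 0.05 and a log2 fold change of 0.58, those of the study's methods. A standard error is the log2 fold change divided by the square root of its F statistic. Log2 ratios of paralogs used a prior count of 0.5 and exact permutation tests (scipy 1.17.1). The labels number the replicates and give the tissue both as whole brain and as a hemisphere. That replicates are separate animals is taken from the study's methods.

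Values in every library are given for called carriers with a mean of at least 1 CPM, the 8 carriers of highest level per kb and both genes of each pair, and called genes of the other lists are named, except genes that are counted in the totals but not reported here. Carriers, pairs and lists were chosen with earlier results of these data known. Alternatives were RLE and upper-quartile factors, library totals, mitochondrially encoded genes left out, DESeq2 1.42.0 on counts as deposited and on quantile-normalized counts, limma-voom (limma 3.58.1), another filter, no filter, the adjusted p alone, a block for replicate number, every library omitted in turn, offsets for exonic length or GC content, and thinning to the smallest library. Depth limits precision for the carriers under 1 CPM, whose libraries hold few counts.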

Additional observations from a re-analysis of the deposited data

Results flagged for a closer look

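In 90 groups of 4 libraries examined (30 carriers given in full and 15 log2 ratios, each at both ages), 5 held a library set apart from the other 3 by more than Dixon's critical value of the gap over the range, and chance flags about 5% of such groups. The Slc25a13 level was 2.39 CPM in 6m replicate 1, beside 2.12 to 2.16 in the other young libraries. Slc25a30 stood at 1.18 CPM in 6m replicate 3, beside 0.945 to 0.953. Slc25a40 was low in 6m replicate 4, at 0.772 CPM beside 1.46 to 1.58, and its call was lost without that library. The log2 ratio of Slc25a22 over Slc25a18 was 1.83 in 24m replicate 1, beside 2.17 to 2.22, and that of Slc25a14 over Slc25a27 was 3.60 in 24m replicate 4, beside 3.78 to 3.79.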

How the results depend on the processing

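Over the alternatives the carriers called higher numbered 9 to 18 and those called lower 3 to 12, against 13 and 5. Shares of all genes called were computed only for the main fit, the adjusted p alone and the length offset. Those called lower were 3 with library totals alone, 3 with a filter of at least 1 CPM in 4 libraries (which removes Slc25a2 and Slc25a41), and 12 by the adjusted p alone. The median log2 fold change was 0.20 with library totals alone. DESeq2 on quantile-normalized counts called 10 carriers higher and 4 lower, of which 9 and 3 were also called by the main fit. It gained Slc25a23 as higher and Slc25a47 as lower. Leaving out 1 library at a time gave 9 to 14 higher and 3 to 7 lower, and 12 of the 18 calls held in every such fit, and 11 in every alternative fit that tested the gene. Slc25a4 turned to 0.15 with DESeq2 on quantile-normalized counts, 0.058 with the length offset, 0.063 with length and GC offsets and 0.054 with the replicate block and length offset. Slc25a5 turned to 0.010, 0.33, 0.30 and 0.32 in the same fits. The cause was not tested. No pair of paralogs passed the adjusted exact permutation test, and 7 did unadjusted. With 3 against 4 libraries no pair can pass, since the smallest p is 0.0571. Without 1 library the difference of the log2 ratio ran from -0.021 to 0.031 for Slc25a4/Slc25a5 and from -0.0067 to 0.16 for Slc25a23/Slc25a25.

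The replicate numbers did not pair the libraries, with correlations of deviations from -0.35 to 0.27 for same-numbered libraries and none correlating best with its own number. With the replicate block 13 carriers were called higher and 6 lower, and with the replicate block and length offset 10 and 4.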
